A study of Mus musculus with 6 samples.

Results

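Lipid droplet budding and surface factors were taken here as 9 genes chosen by symbol, Bscl2, Fitm1, Fitm2, Aup1, Faf2, Rab18, Rab3gap1, Rab3gap2 and Hsd17b11. They are 9 of the 48967 genes that have at least 1 exonic part, meaning a stretch of exon sequence counted separately, and the counts of each gene were summed over its parts. Of these 9 genes, 7 passed the filter on low counts and were among the 16020 genes tested, while Fitm1 and Hsd17b11 did not pass.

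Total RNA was sequenced from mouse 2-cell embryos from 3 control and 3 delipidated samples, with 3 day 2 embryos pooled per sample. All embryos were wt with the strain F1 (C57Bl/10 X CBA/H), and all were kept in fatty acid-free KSOM at 37.5 °C with 5% CO2 between 0.5 and 2.0 dpc. For the delipidated group, zygotes were spun in cytochalasin B at 50 µg/mL, the zona pellucida was opened with a laser and the gathered droplets were drawn off with a pipette. The labels do not say whether control zygotes were also exposed to cytochalasin B, spun or opened. Embryos of several females were mixed before they were allotted to the groups, so p-values measure the spread between pooled samples and not between females. The counts summed over genes were between 12164963 and 16165958 in control libraries and between 14683741 and 20059460 in delipidated libraries. Delipidated replicate 1 had the most counts, 20059460, but the fewest genes with a count, 17091, against 22855, 22437 and 20582 genes in controls and 19408 and 20158 in the other delipidated libraries. This library also took part in the lowest correlation of log2 level across genes, with a Pearson's r of 0.838 to control replicate 3, while the highest was 0.903, between control replicate 1 and delipidated replicate 3. Genes are not independent replicates, so these correlations only describe how alike the libraries were.

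Lipid droplets store neutral lipids under a phospholipid monolayer and arise from the membrane of the endoplasmic reticulum (ER). Seipin, the product of Bscl2, forms ring-shaped complexes where droplets join the ER, and the FIT proteins of Fitm1 and Fitm2 act in the ER on the lipid that buds into droplets. Other proteins reach the droplet surface through membrane hairpins or lipid anchors, and among them are enzymes, small GTPases and factors that hand proteins to the ubiquitin system. In mouse embryos of this stage, RNA left over from the oocyte is being cleared while transcription of the embryonic genome starts.

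The libraries held the transcripts of such embryos. All 9 genes found among 10 markers of 2-cell activation had counts in every library, and their summed level was 676, 348 and 536 CPM, the library-scaled count, in controls and 444, 589 and 791 CPM in delipidated libraries. Dux was not matched. The most abundant of them was Sp110, with 264 ± 90.7 CPM (SD, n = 3) in controls. All 10 markers of the oocyte were also counted in every library, with sums of 1405.5, 925 and 1340 CPM in controls and 1059, 1246 and 1565 CPM in delipidated libraries. Among them Oosp1, an oocyte-secreted protein gene, was the most abundant, with 467 ± 116 CPM (SD, n = 3) in controls. Markers of other cells were mostly low. Of 12 markers of cumulus and granulosa cells, Foxl2 and Ptx3 were at 0 in every library, and the most abundant, Nr5a2, had 209 ± 24.1 CPM (SD, n = 3) in controls. The whole list summed to 203.5, 246 and 295 CPM in controls and to 249, 211 and 158 CPM in delipidated libraries. Without Nr5a2, the sums were 20.9, 16.1 and 81.5 CPM in controls and 4.10, 11.2 and 11.3 CPM in delipidated libraries, so that the groups did not overlap. That separation rested on Vim, as the sums without Nr5a2 and Vim were 8.10, 7.38 and 58.7 CPM in controls and 4.10, 11.2 and 11.3 CPM in delipidated libraries, which overlapped. Hsd3b1 made up 46.1 CPM of the sum in control replicate 3, and was named after its values were seen. Vim, the gene of the intermediate filament vimentin, had 12.8, 8.77 and 22.8 CPM in controls and 0 in each delipidated library, and was named after its values were seen. Its adjusted p was 0.0721 with edgeR's quasi-likelihood test and Benjamini-Hochberg adjustment, and ranged from 5.70e-12 to 1.00 over 16 alternative settings, 2 of which called it. The 8 leukocyte markers summed to 25.1, 17.6 and 13.0 CPM in controls and 7.55, 10.1 and 13.8 CPM in delipidated libraries, with Coro1a as the most abundant. The leukocyte sums of the groups overlapped, but all 6 tested leukocyte markers had a negative log2 fold change, with a median of −0.82, and 0 of them had an unadjusted p under 0.05 with edgeR. The 8 markers of fat and muscle summed to between 975 and 1157 CPM, nearly all of it Ttn, and Adipoq was at 0 in every library. The study's methods state that cumulus cells were stripped with hyaluronidase and washed away. Whether RNA of other cells has a part in any difference below was not tested. As these are bulk libraries, fewer cells of a type and less RNA per cell cannot be told apart.

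The 9 genes differed widely in level. Compared per kilobase (kb) of exonic parts, the mean level in controls was highest for Rab18, at 20.5 ± 1.34 CPM per kb (SD, n = 3). It was followed by Rab3gap2 with 12.4 ± 3.33, Faf2 with 12.0 ± 6.95, Rab3gap1 with 9.76 ± 2.72 and Bscl2 with 8.40 ± 1.21 CPM per kb. The control range of Rab18 lay above that of Rab3gap2. The middle of this order was not separated, since the control ranges overlapped between Rab3gap2 and Faf2, between Faf2 and Rab3gap1, and between Rab3gap1 and Bscl2. A clear step came next, as Aup1 had 1.73 ± 0.871 CPM per kb and its control range lay below that of Bscl2. Fitm2 followed with 0.753 ± 0.367 CPM per kb. Its highest control, at 1.17, lay only just below the lowest of Aup1, at 1.20 CPM per kb. Hsd17b11, with 0.0948 ± 0.164 CPM per kb, and Fitm1, at 0 in all 3 controls, closed the order and did not differ beyond their spread. The median protein-coding gene had 0.754 CPM per kb in controls, and 17.2% of 21697 protein-coding genes were at 0 there. Rab18 lay above 88.8%, Rab3gap2 above 83.6%, Faf2 above 83.2%, Rab3gap1 above 80.9% and Bscl2 above 79.1% of them, whereas Fitm2 lay above 50.0%.

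**Figure D1:**
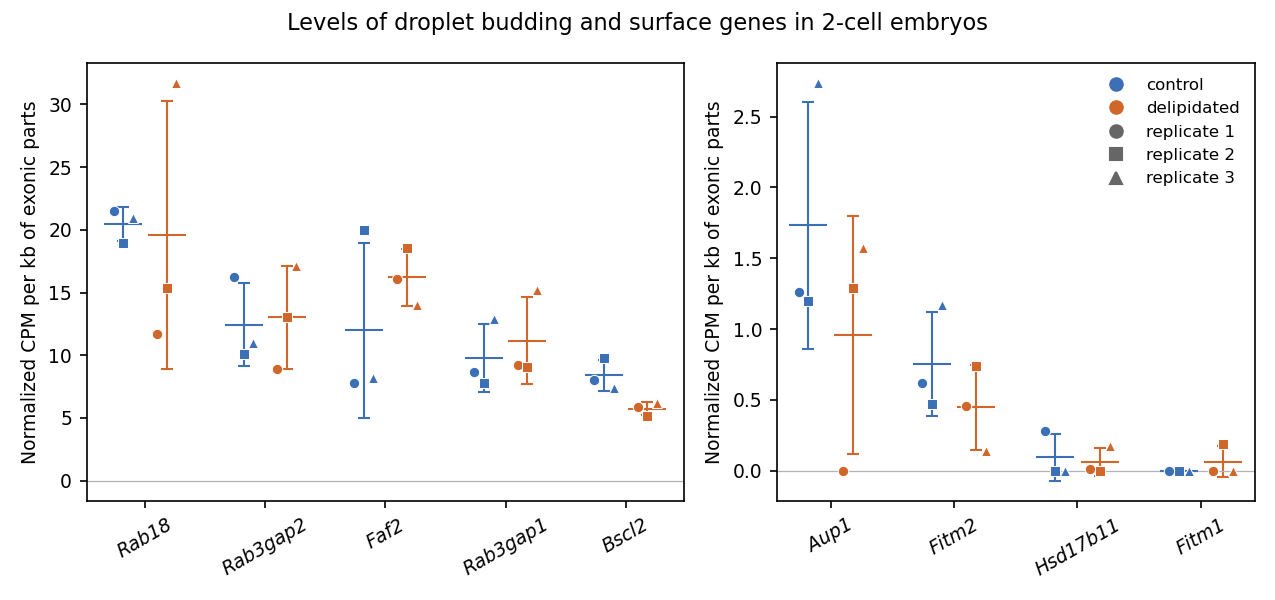
Normalized CPM per kb of exonic parts (vertical axes) of the 9 genes in each library, with circles, squares and triangles for replicates 1, 2 and 3, and horizontal and vertical bars for the mean and SD of each group. The 5 genes on the left reach up to 31.7 CPM per kb (Rab18 in delipidated replicate 3), while the 4 on the right, on their own axis, stay at or below 2.74 CPM per kb (Aup1 in control replicate 3).

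The order at the top depended on which parts were counted. Parts found only in noncoding transcripts, such as retained introns, made up 61.7% of the exonic bases of Bscl2 and 63.7% of Rab3gap1, but held 4.24% and 1.05% of their counts. In Faf2 such parts were 13.4% of the bases, while untranslated parts of its coding transcripts were 51.4% and held 9.42% of the counts. Rab18 had no part labelled as either kind, because a part was labelled coding if any of its bases overlapped coding sequence. When only parts that overlap coding sequence were used, a choice made after seeing the data, the control means were 33.0 ± 9.96 CPM per kb for Rab3gap1, 29.5 ± 6.05 for Bscl2, 28.7 ± 8.25 for Rab3gap2, 28.1 ± 15.8 for Faf2 and 20.5 ± 1.34 for Rab18 (SD, n = 3). On this scale Rab18 moved from the top to the fifth place, and the control ranges of all neighbours among these 5 genes overlapped. The scale did not treat the genes alike, as it kept all 2257 bases of Rab18 but only 1504 of the 5897 bases of Bscl2. The last part of Rab18 spans 1752 of its 2257 bases and had 8.48, 5.45 and 4.69 CPM per kb in controls. How much of that part is untranslated was not determined. Over the other 6 parts, with 505 bases, Rab18 reached 66.8, 65.9 and 77.4 CPM per kb in controls. These values lay above every control value for the coding parts of Rab3gap1, Bscl2, Rab3gap2 and Faf2, the highest being 46.3 (Faf2 in control replicate 2). Aup1, Fitm2, Hsd17b11 and Fitm1 kept the last places on both scales, with 3.48 ± 2.195 CPM per kb for the coding parts of Aup1 (SD, n = 3). The place of Rab18 thus depended on whether its last part was counted. Rab3gap1, Bscl2, Rab3gap2 and Faf2 had no firm order among themselves. Aup1, Fitm2, Hsd17b11 and Fitm1 each lay below all 5 of these genes in the controls on both scales.

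None of the 9 genes was called higher or lower in delipidated embryos, at an adjusted p under 0.05 and a log2 fold change beyond 1 with edgeR's quasi-likelihood test. The same held for all genes, with 0 of 16020 called, or 0.0%. At an unadjusted p under 0.05, the count was 0 of the 7 tested members against 463 of all tested genes, or 2.89%. DESeq2 without a filter on low counts and limma-voom also called 0 members and put 0 of them under an unadjusted p of 0.05. Over all genes, 1341 of 30967 in DESeq2, or 4.33%, and 619 of 16020 in limma-voom, or 3.86%, were under that p, and DESeq2 called 6 genes higher and 28 lower. Of the 7 tested members, 3 had a positive and 4 a negative log2 fold change, with a median of −0.07, beside 8004 positive and 8016 negative values and a median of −0.00 over all tested genes. With edgeR, Bscl2 was the member with the smallest unadjusted p, while limma-voom gave Aup1 a smaller one, 0.0597 against 0.0915 for Bscl2. Bscl2 was also the only tested member whose groups did not overlap. Lower values in every delipidated library than in every control were found for 809 tested genes, or 5.05%, so that 1 gene of 7 says little by itself.

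**Figure D2:**
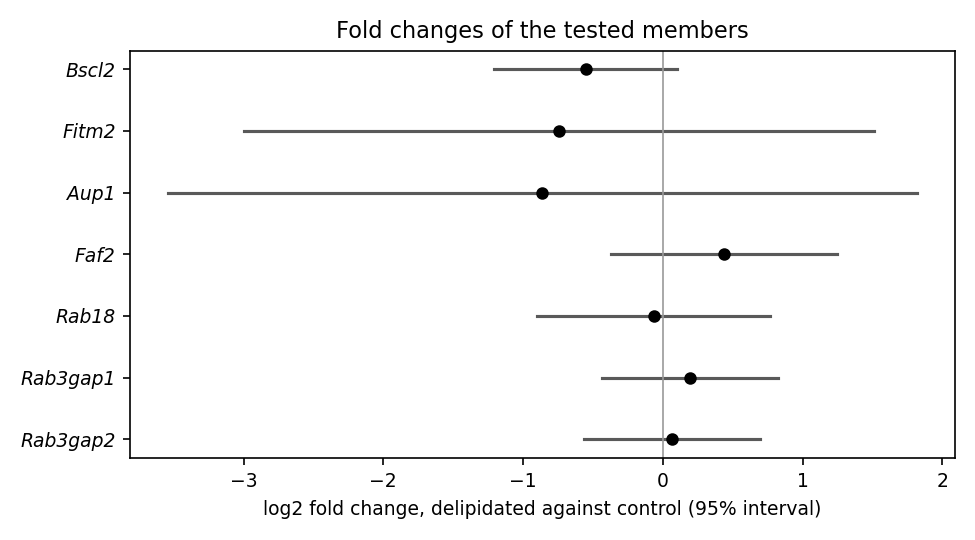
Log2 fold change of delipidated against control embryos (horizontal axis) for the 7 tested members, with points for the estimate and lines for its 95% interval. Every interval includes 0, and the widest belong to the genes with the fewest counts, from −3.54 to 1.82 for Aup1 and from −2.99 to 1.51 for Fitm2.

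Among the budding factors, Bscl2 had the most counts. Bscl2 (ENSMUSG00000071657), the gene of seipin, lies at chr19:8837467-8848683 on the forward strand of GRCm38 and has 29 exonic parts. Its level was 47.3, 57.5 and 43.7 CPM in control replicates 1 to 3 and 34.7, 30.4 and 36.3 CPM in delipidated replicates 1 to 3. Each delipidated library was thus below each control, with a narrow gap between 36.3 and 43.7 CPM. The means were 49.5 ± 7.16 and 33.8 ± 3.04 CPM (SD, n = 3 each), a ratio of 0.682. An exact two-sided permutation test gave p = 0.1, the smallest that 3 against 3 libraries can give. With edgeR its log2 fold change was −0.55 (standard error 0.30, 95% interval −1.20 to 0.10), its unadjusted p was 0.0901 and its adjusted p was 1.00 with edgeR's quasi-likelihood test and Benjamini-Hochberg adjustment. The interval allows for a level between 0.434 and 1.07 times that of controls. By unadjusted p, Bscl2 ranked 869 among the 16020 genes.

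Where along Bscl2 the counts fell differed between libraries. With its coding parts divided at the middle of their 1504 bases, the upstream 4 parts held 43.7%, 28.0% and 40.1% of the coding counts in controls and 60.3%, 44.6% and 30.1% in delipidated libraries. Delipidated replicate 1 stood apart. It had the highest level of all libraries at the part chr19:8841108-8841424, with 6.42 CPM, and the lowest of all libraries at chr19:8847406-8847547, with 0.543 CPM, where the other 5 libraries had 3.69 to 8.04 CPM. Downstream of the middle, its level was 15.4 CPM per kb, below the 18.7 and 29.7 of the other delipidated libraries and the 31.8, 52.0 and 29.0 CPM per kb of controls. Upstream of the middle the groups overlapped, with 24.7, 20.2 and 19.4 CPM per kb in controls and 23.3, 15.03 and 12.8 in delipidated libraries. So the separation of the groups seen for the whole gene did not hold in either stretch alone, since delipidated replicate 3, at 29.7, lay above control replicate 3, at 29.0 CPM per kb, in the downstream stretch.

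Bscl2 shares sequence with its neighbours in the annotation. Of its counts, 22.7% fell on 5 parts that overlap exons of AC129217.1, a gene on the same strand, or of Gng3, which runs the opposite way. Without these parts, left out after the data were seen, its level was 34.6, 48.5 and 34.7 CPM in controls and 25.2, 21.3 and 29.0 CPM in delipidated libraries. The groups again did not overlap, and the log2 fold change was −0.64 with an unadjusted p of 0.0813. The counting did not tell strands apart, as all 11 pairs of parts that lie at the same place on opposite strands and have at least 10 counts had equal counts for both genes.

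**Figure D3:**
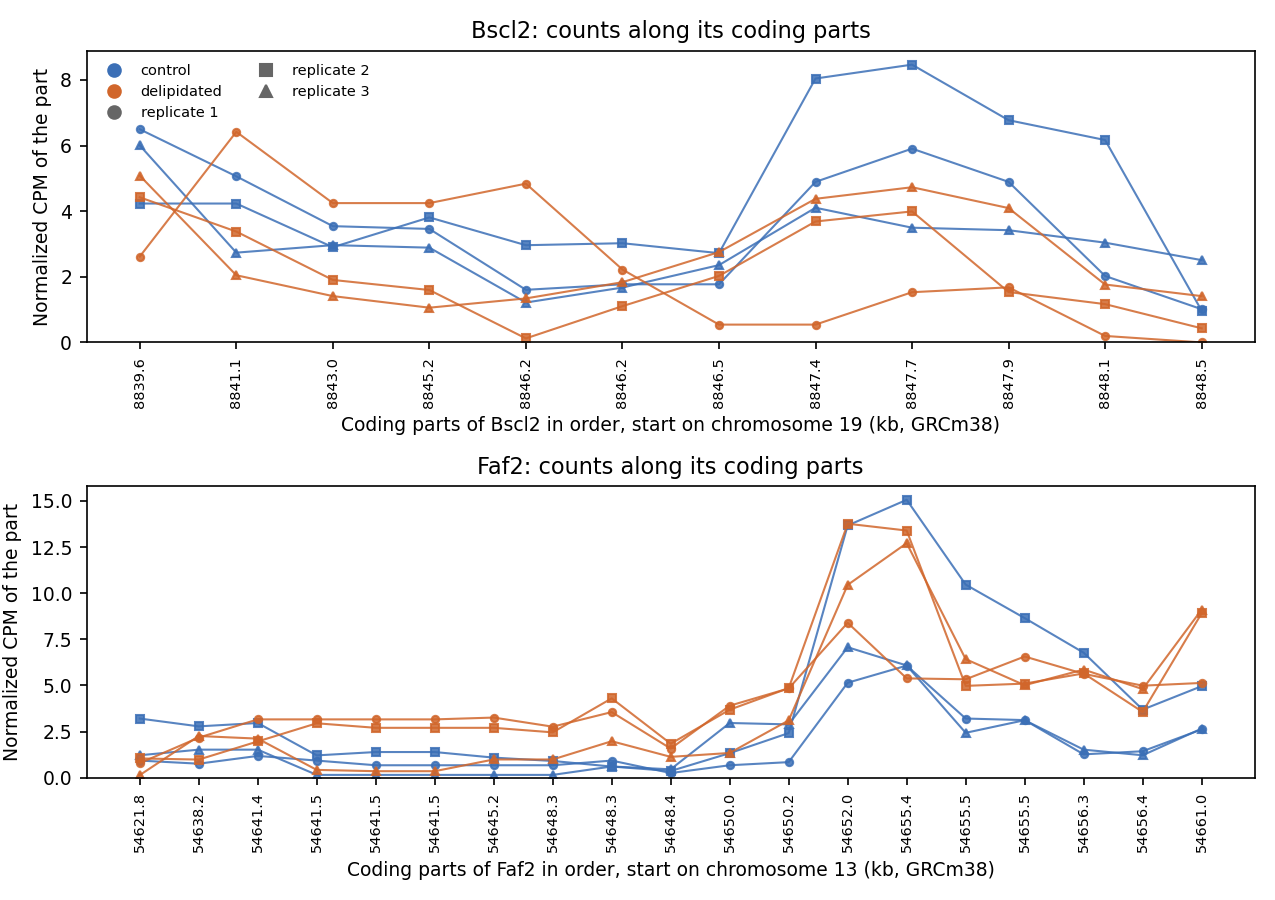
Normalized CPM (vertical axes) of each coding part of Bscl2 and Faf2 in transcript order (horizontal axes, start of the part in kb), with a line per library, blue for control and orange for delipidated, and circles, squares and triangles for replicates 1, 2 and 3. In Bscl2 delipidated replicate 1 is the highest of the 6 libraries at the part that starts at 8841108 (6.42 CPM) and the lowest of the 6 at that starting at 8847406 (0.543 CPM), and in Faf2 control replicate 2 reaches 15.1 CPM at the part starting at 54655406, beside 6.07 and 6.08 CPM in the other controls.

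The FIT genes had few counts or none. Fitm2 (ENSMUSG00000048486, chr2:163466379-163472629, reverse strand) is the widely expressed FIT gene and had 29, 31 and 61 counts in controls and 37, 48 and 8 in delipidated libraries. Its level was 2.45, 1.87 and 4.64 CPM in controls and 1.83, 2.95 and 0.565 CPM in delipidated libraries. The groups overlapped, and the exact two-sided permutation p was 0.4. Its log2 fold change was −0.74 (standard error 1.03, 95% interval −2.99 to 1.51). The interval is too wide to tell a fall from a rise. Fitm2 was at −0.28 without control replicate 3, −0.32 without delipidated replicate 3 and −1.31 without delipidated replicate 2. In delipidated replicate 2, 19 of the 48 counts lay on the part that overlaps the antisense gene 2310001K24Rik, which had 24 counts in that library. Without that part its levels were 2.11, 1.87 and 4.64 CPM in controls and 1.83, 1.78 and 0.565 CPM in delipidated libraries, which no longer overlapped by a margin of 1.87 to 1.83 CPM. Its log2 fold change was then −1.04, with an unadjusted p of 0.345.

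Fitm1 (ENSMUSG00000022215, chr14:55575617-55576954, forward strand), the FIT gene of skeletal muscle and heart, had no counts in 5 of the 6 libraries. A count of 0 allows up to 3 counts, or between 0.148 and 0.253 CPM depending on the library, and PCR copies and reads counted in several parts are not separate molecules, so such limits cover counting error only. The 3 counts in delipidated replicate 2 lay on the part that overlaps the antisense gene Gm15932, which itself had 3 counts there and 108 in delipidated replicate 1. No fold change is given, because both groups were at or under the limit.

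The genes that link droplets to the ubiquitin system differed from each other in how many counts they had. AUP1 is a hairpin protein that brings the ubiquitin-conjugating enzyme UBE2G2 to the droplet surface. Aup1 (ENSMUSG00000068328, chr6:83054521-83057808, forward strand) had 49, 65 and 118 counts in controls and 0, 69 and 73 in delipidated libraries. It has 53 exonic parts, 21 of them without counts in any library. Its level was 4.13, 3.93 and 8.97 CPM in controls and 0, 4.24 and 5.15 CPM in delipidated libraries. Delipidated replicate 1 had no count on any part, although it was the library with the most counts, and the other 5 libraries overlapped. For Aup1, edgeR gave a log2 fold change of −0.86 (standard error 1.22, unadjusted p 0.496). Without delipidated replicate 1 it was −0.27, and with limma-voom, which works on log values, it was −3.10. The exact two-sided permutation p over all 6 libraries was 0.6.

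The counts of Aup1 came in a few blocks rather than along the whole transcript. In control replicate 3, 4 parts had 17 counts each on coding sequence between 83055170 and 83055970, and the parts from 83055971 to 83057275 had none. In control replicate 2, in contrast, the largest values were 12 counts at each of 2 coding parts, chr6:83056978-83057093 and chr6:83057276-83057393. The upstream coding parts had 1.61, 0.659 and 9.94 CPM per kb in controls and 0, 0.586 and 2.98 in delipidated libraries, and the downstream ones 3.17, 3.40 and 2.14 in controls and 0, 3.79 and 3.31 CPM per kb in delipidated libraries, so the groups overlapped in both. No part had more than 17 counts in any library, so few fragments stood behind each level. Of all Aup1 counts, 34.2% lay on 15 parts that overlap Htra2, a gene on the opposite strand. Htra2 had 160 counts in delipidated replicate 1, where Aup1 had 0. Without those parts Aup1 had 34, 49 and 73 counts in controls and 0, 55 and 35 in delipidated libraries, and the log2 fold change was −0.96.

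UBXD8, the product of Faf2, sits in the ER and on droplets and recruits the ATPase VCP. Faf2 (ENSMUSG00000025873, chr13:54621784-54664063, forward strand) had 39.6, 102 and 41.5 CPM in controls and 81.9, 94.4 and 71.0 CPM in delipidated libraries. Control replicate 2 lay above all delipidated libraries and the other controls lay below all of them, so the groups overlapped because of that library. The means were 60.9 ± 35.3 and 82.4 ± 11.7 CPM (SD, n = 3 each). The difference was smaller than the spread of the controls, and the exact two-sided permutation p was 0.4. In edgeR, Faf2 had a log2 fold change of 0.43 (standard error 0.37, 95% interval −0.37 to 1.24) and an unadjusted p of 0.263. Without control replicate 2 it was 1.02 with an unadjusted p of 0.00726, and its adjusted p was still 1.00 with edgeR's quasi-likelihood test and Benjamini-Hochberg adjustment. Over the other alternatives and libraries left out, it ranged from 0.21 to 0.63.

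No part of Faf2 overlaps another gene. Control replicate 2 was higher than both other controls at all 6 coding parts from chr13:54655406-54655521 onwards, where it had 52.3 CPM per kb against 18.7 and 17.9 in the other controls. In that stretch the delipidated libraries had 34.8, 43.8 and 46.3 CPM per kb. In the upstream coding parts the levels were 17.0, 39.6 and 22.6 CPM per kb in controls and 52.1, 54.6 and 30.4 in delipidated libraries. Delipidated replicates 1 and 2 were above all controls there, and delipidated replicate 3 was not. At the part chr13:54645245-54645321, for example, the delipidated libraries had 3.26, 2.70 and 0.988 CPM and the controls 0.675, 1.09 and 0.152 CPM. When its coding parts alone were counted, its log2 fold change was 0.63 with an unadjusted p of 0.113, and when only its part with the most counts was used, it was 0.28.

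RAB18 is a small GTPase that binds droplets in its active form. Rab18 (ENSMUSG00000073639, forward strand, chr18:6733905-6794429) had 48.6, 42.8 and 47.3 CPM in controls and 26.3, 34.7 and 71.6 CPM in delipidated libraries. The controls lay close together, whereas 2 delipidated libraries were below all controls and delipidated replicate 3 was above them. The SD was 3.03 CPM in controls and 24.1 CPM in delipidated libraries, around means of 46.2 and 44.2 CPM (n = 3 each). Whether the spread itself differed between groups was not tested. Its log2 fold change in edgeR was −0.07 (standard error 0.38, unadjusted p 0.866), and the exact two-sided permutation p was 1. Its direction rested on single libraries, as it was 0.20 without delipidated replicate 1, 0.08 without delipidated replicate 2 and −0.60 without delipidated replicate 3. The last part overlaps AC131796.2, a gene on the same strand, and held 22.4% of the counts. Without it the log2 fold change was −0.04, and the levels of 21.03, 28.3 and 54.0 CPM in delipidated libraries again fell on both sides of the 33.7, 33.3 and 39.1 CPM of controls.

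RAB3GAP1 and RAB3GAP2 together form the exchange factor that loads RAB18 with GTP. Rab3gap1 (ENSMUSG00000036104, chr1:127868773-127943868, forward strand) had 102, 91.3 and 151 CPM in controls and 108, 107 and 179 CPM in delipidated libraries. In each group replicate 3 was the highest, and the groups overlapped. Rab3gap1 had a log2 fold change of 0.19 (standard error 0.29), and it was −0.09 without delipidated replicate 3. With only the part that has the most counts it was −0.01. Rab3gap2 (ENSMUSG00000039318, chr1:185204117-185286759, forward strand) had 175, 109 and 119 CPM in controls and 96.5, 141 and 185 CPM in delipidated libraries. Here the control range lay within the delipidated range. Its log2 fold change was 0.06 (standard error 0.29), and it was −0.07 without control replicate 2, −0.02 without control replicate 3 and −0.18 without delipidated replicate 3. The exact two-sided permutation p was 0.5 for Rab3gap1 and 0.9 for Rab3gap2. The 95% intervals were −0.43 to 0.82 for Rab3gap1 and −0.56 to 0.69 for Rab3gap2, which still include 1.77 and 1.62 times the control level.

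The subunits of the exchange factor were similar in level per kb of coding parts, with 33.0 ± 9.96 for Rab3gap1 and 28.7 ± 8.25 CPM per kb for Rab3gap2 in controls (SD, n = 3). The upstream coding parts held 60.0%, 72.3% and 64.0% of the coding counts of Rab3gap1 in controls and 63.9%, 61.2% and 65.1% in delipidated libraries. Rab3gap2 was less even, with 48.7%, 63.1% and 60.3% in controls and 54.5%, 38.1% and 53.6% in delipidated libraries. Delipidated replicate 2 was the lowest of the 6. It was also the only library with no more than 4 counts on each of the 4 parts between 185238779 and 185247923, where control replicate 2 had 9, 6, 32 and 63 counts. Of the Rab3gap2 counts, 2.48% lay on a part that overlaps Gm34882 and 1.12% on parts that overlap Iars2.

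Hsd17b11, the gene of a short-chain dehydrogenase carried on the droplet surface, was barely counted. Hsd17b11 (ENSMUSG00000029311, chr5:103989762-104021919, reverse strand) had 11, 0 and 0 counts in controls and 1, 0 and 8 in delipidated libraries. The level in the libraries with counts was 0.928, 0.0494 and 0.565 CPM. The 11 counts of control replicate 1 lay on 5 of the 9 parts, with at most 3 on any of them. It had too few counts to be tested and has no fold change. Its relative Hsd17b13 was counted in every library, with 27.8 ± 5.55 CPM in controls and 35.5 ± 5.19 CPM in delipidated embryos (SD, n = 3 each), and was named after its values were seen.

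The other genes of these pathways were described from 4 lists with 51 genes, of which 48 were tested. With edgeR's quasi-likelihood test 0 were called, and DESeq2 and limma-voom also called 0. At an unadjusted p under 0.05, 0 were higher and 1 was lower, beside 463 of all 16020 tested genes, or 2.89%, a share that 1 of 48 does not exceed. Positive log2 fold changes were found for 27 and negative ones for 21, with a median of 0.03, beside −0.00 over all tested genes. As 0 of all 16020 tested genes were called too, these counts say nothing particular about the lists. A shift of the lists as a whole was not tested.

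Of 12 genes for partners of seipin and for ER sites where droplets bud, 7 had positive and 5 negative values, with a median of 0.08. Tmem41b, the gene of an ER lipid scramblase, had 313, 363 and 337 CPM in controls and 263, 303 and 242 CPM in delipidated libraries. The groups did not overlap, with a log2 fold change of −0.33 (standard error 0.18, unadjusted p 0.104). Among all 16020 tested genes, groups that did not overlap, in either direction, were found for 1420. Atl3, which encodes an ER-shaping GTPase, had a log2 fold change of 0.64 (standard error 0.48), which was 0.31 without delipidated replicate 1 and 1.02 without control replicate 2. Osbpl8, the gene of a lipid transfer protein at ER contact sites, was the most abundant per kb, with 77.9 CPM per kb in controls and a log2 fold change of −0.21, which was −0.09 without control replicate 1 and 0.013 with only the part with the most counts.

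Of 11 genes for the RAB18 switch and the NRZ complex that tethers ER to droplets, 7 were positive and 4 negative, with a median of 0.12. The smallest unadjusted p-values belonged to the SNARE genes Sec22b, with a log2 fold change of 0.96 (standard error 0.68), and Stx18, with −0.78 (0.88), or −0.28 without delipidated replicate 1. Both had few counts. Sec22b was at 0.49 without delipidated replicate 3, and at 0.018 with only the part with the most counts. Sec22b had 2.70, 4.23 and 3.88 CPM in controls and 5.38, 4.79 and 10.9 CPM in delipidated libraries. Its groups did not overlap either, with the delipidated libraries higher. Trappc10, a subunit gene of a TRAPP complex, was the highest per kb, with 21.6 CPM per kb in controls and a log2 fold change of 0.02 that turned to −0.32 without control replicate 3 and to −0.06 without delipidated replicate 3.

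Of 14 genes for ER-associated degradation partners of AUP1 and UBXD8, 6 were positive and 8 negative, with a median of −0.09. Ubac2, whose product holds UBXD8 in the ER, was the 1 gene with an unadjusted p under 0.05. It had 27.4, 38.9 and 24.9 CPM in controls and 10.5, 20.7 and 17.9 CPM in delipidated libraries. The groups did not overlap, with a log2 fold change of −0.90 (standard error 0.40), an unadjusted p of 0.0473 and an adjusted p of 1.00 in edgeR's quasi-likelihood test with Benjamini-Hochberg adjustment. With each library left out in turn its unadjusted p ranged from 0.0419 to 0.172, and only the fit without delipidated replicate 2 put it under 0.05. For Sel1l the log2 fold change was −0.55 (standard error 0.27, unadjusted p 0.0642), and with only the part with the most counts it was 0.029. The groups of Sel1l did not overlap by a narrow margin, with 70.9 CPM in control replicate 2 and 70.8 CPM in delipidated replicate 3. Ubxn4, the most abundant per kb with 67.3 CPM per kb in controls, had a log2 fold change of 0.11, which was −0.05 without control replicate 3 and −0.10 without delipidated replicate 1.

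Of 14 genes for hairpin and other surface proteins, 11 were tested, with 7 positive and 4 negative values and a median of 0.05. Vps13c, which encodes a lipid transfer protein, had a log2 fold change of −0.54 (standard error 0.41), or −0.17 without delipidated replicate 1, and Dhrs3, a retinal reductase gene, 0.78 (0.65). Arf1, a GTPase gene of the COPI coat, was the highest per kb, with 72.4 CPM per kb in controls, and had a log2 fold change of 0.13 that was −0.11 without delipidated replicate 3. Cav1, Aifm2 and Mettl7b did not pass the filter on low counts and were named for that reason after their values were seen.

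Among the tested genes, those closest to Rab18 over the 6 libraries were Pcyt1b and Fam49a, with a mean absolute difference in log2 CPM of 0.13 and 0.15. Pcyt1b had 51.3, 44.3 and 43.5 CPM in controls and 32.9, 37.0 and 64.5 CPM in delipidated libraries. Its high value in delipidated replicate 3 follows from its choice for likeness to Rab18 over the same 6 libraries. Closest to Bscl2 were Gfer and Helb, with mean absolute differences of 0.12 and 0.14. Gfer had 40.2, 54.4 and 42.9 CPM in controls and 34.4, 23.6 and 37.1 CPM in delipidated libraries.

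The members differed in promoter sequence. Windows of 250 bases before an annotated RefSeq start were found for 7 of the 9 members, and CG dinucleotides were counted in them. A window held 28 for Rab3gap2, 21 for Faf2, 13 for Hsd17b11, 11 for Fitm2, 9 for Rab3gap1 and 2 for Fitm1, against a median of 6 over 32851 windows. At least 21 CG were found in 16.3% of all windows and at least 2 in 81.2%. The windows of Rab3gap2, Hsd17b11 and Fitm1 run into an annotated exon of the same gene, so their numbers are not of upstream sequence alone, and that of Rab3gap2 held 23 CG up to the exon. The window of Fitm2 holds annotated exon sequence of 2310001K24Rik. Bscl2 has 3 such windows with 10, 3 and 2 CG, and those with 10 and 3 CG hold annotated exon sequence of Gng3. The window with 2 CG lies before a start close to the parts chr19:8840519-8840534 and chr19:8840535-8840568, which had no counts in any library. Shown are the window of Faf2, the CG-rich example with a high level, that of Fitm1 up to its first annotated exon, the CG-poor example without counts in controls, and the window of Bscl2 before the start beside the uncounted parts. They are from RefSeq, build GRCm38.p6, all on the forward strand, with each CG in capitals, and positions are chr13:54621534-54621783 for Faf2, chr14:55575424-55575616 for Fitm1 and chr19:8840253-8840502 for Bscl2.
Faf2: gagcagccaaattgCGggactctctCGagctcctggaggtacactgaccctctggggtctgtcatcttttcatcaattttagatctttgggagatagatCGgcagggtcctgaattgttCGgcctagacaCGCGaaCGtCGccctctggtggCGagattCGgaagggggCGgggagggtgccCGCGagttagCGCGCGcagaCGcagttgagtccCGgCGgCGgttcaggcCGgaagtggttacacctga
Fitm1: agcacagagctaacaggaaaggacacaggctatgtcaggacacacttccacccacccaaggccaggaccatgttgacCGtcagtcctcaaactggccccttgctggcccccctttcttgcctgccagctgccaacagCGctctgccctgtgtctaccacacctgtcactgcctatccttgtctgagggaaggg
Bscl2: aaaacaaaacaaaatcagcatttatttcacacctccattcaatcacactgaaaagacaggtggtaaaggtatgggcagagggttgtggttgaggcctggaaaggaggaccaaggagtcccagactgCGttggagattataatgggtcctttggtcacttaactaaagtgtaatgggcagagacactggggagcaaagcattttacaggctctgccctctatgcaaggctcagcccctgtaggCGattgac
The examples do not stand for all members. In controls Hsd17b11, with 13 CG, had 0.0948 CPM per kb, while Rab3gap1, with 9 CG, had 9.76 CPM per kb. A link between CG number and level was not tested. The CG number describes these bases only, and methylation or factor binding was not measured here.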

How the data were processed

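The 6 libraries, 3 control and 3 delipidated, were grouped by their titles in the labels. According to the study's methods and the submitters' processing notes, libraries were made with a strand-specific total RNA kit after rRNA depletion, reads were demultiplexed with bcl2fastq 2.20, trimmed with Trimmomatic 0.36, aligned with STAR 2.5.2b to mm10 and counted with featureCounts. The deposited files hold raw counts per exonic part, not normalized, in 425461 parts.

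Counts of parts were added up per gene. Of 33309 parts under joined identifiers of several genes, 27968 were given to the only gene of the identifier whose exons in the GENCODE annotation they overlap, and the rest, 2.49% to 2.57% of counts, were left out. No part of the 9 members was joined. A read across neighbouring parts adds to all of them, so sums exceed reads, the precision they seem to give is too high, and genes with short parts gain.

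Gene counts were filtered with filterByExpr (minimum count 10, minimum total 15), scaled with TMM and tested with edgeR 4.0.16 (quasi-likelihood, no covariates) in R 4.3.3. CPM are counts scaled by library size and TMM factor. A call needed an adjusted p under 0.05 (Benjamini-Hochberg, over all tested genes) with a log2 fold change above 1 or below −1. Variation between libraries was high, with a common biological coefficient of 0.663. The scripts were tested on simulated data. Alternatives were DESeq2 1.42.0, DESeq2 size factors, other filters, limma-voom (limma 3.58.1), other library sizes, a replicate block, each library left out, joined parts left out and 1 part per gene. Tables were made with Python 3.11.15.

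The members and lists were chosen with earlier results of these data known. Named are all members, from each pathway list the genes called or else the 2 with the smallest unadjusted p and the highest per kb in controls, from each marker list its most abundant gene and those at 0, and the 2 genes closest to Rab18 and to Bscl2. Exceptions are marked.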

Additional observations from a re-analysis of the deposited data

How the results depend on the processing

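Over 17 alternatives, no member and no pathway gene was called, and the log2 fold changes of Bscl2, Fitm2, Aup1 and Faf2 kept their direction wherever they were tested. Aup1 was not tested with 1 part per gene and Fitm2 not with a mean count of at least 50. With each library left out in turn, Bscl2 ranged from −0.64 to −0.43, Fitm2 from −1.31 to −0.28, Aup1 from −1.42 to −0.27, Faf2 from 0.21 to 1.02, Rab18 from −0.60 to 0.20, Rab3gap1 from −0.095 to 0.44 and Rab3gap2 from −0.18 to 0.32, and of the pathway genes Trappc10 from −0.32 to 0.30, Ubxn4 from −0.10 to 0.33, Arf1 from −0.11 to 0.31, Stx18 from −1.19 to −0.28, Vps13c from −0.82 to −0.17, Ubac2 from −1.10 to −0.66, Atl3 from 0.31 to 1.02, Osbpl8 from −0.32 to −0.09, Sel1l from −0.73 to −0.42, Sec22b from 0.49 to 1.17, Dhrs3 from 0.52 to 1.14 and Tmem41b from −0.42 to −0.26. With 1 part per gene, Rab3gap1 was at −0.013, Osbpl8 at 0.013, Trappc10 at −0.016 and Sel1l at 0.029, each on the other side of 0, while Sec22b was at 0.018 instead of 0.96 and Atl3 at 0.22 instead of 0.64, and the cause was not tested. In the other alternatives Bscl2 stayed between −0.64 and −0.51. The parts shared with another gene and the noncoding parts were left out after seeing the data.

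Over all genes, DESeq2's Wald test without a filter on low counts called 6 genes higher and 28 lower, and edgeR without a filter 5 higher and 25 lower, where the filtered edgeR test called 0. These fits include genes with few counts, and their median log2 fold change was −0.17 in DESeq2 and −0.18 in edgeR. Over the 18 group means, the levels of the members moved by less than 1 SD with DESeq2 size factors, apart from Fitm1 in controls, which stayed at 0.

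The replicate numbers did not pair the samples, as the deviations of same-numbered libraries from their group means, in log2 CPM across tested genes, had correlations of −0.08, 0.07 and 0.04. With the number as a block, edgeR called 0 genes in either direction, and the log2 fold change was −0.55 for Bscl2, −0.85 for Fitm2, −1.76 for Aup1, 0.57 for Faf2, −0.20 for Rab18, 0.19 for Rab3gap1 and 0.05 for Rab3gap2.

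With 3 libraries a group, an exact permutation p cannot go below 0.1. A missing call does not show equal levels. Few counts limit Fitm1, Hsd17b11, Fitm2 and Aup1 most.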
